A study of Mus musculus with 2 samples.

Results

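Weak reproduced sites are accessible sites of lung chromatin that both DNase-seq libraries listed, but that neither listed at the stricter level. In this assay nuclei are digested with the enzyme DNase I, which cuts DNA free of nucleosomes far more often than wrapped DNA, and the cut ends are sequenced. Each library came with a smaller, strict peak list and a larger list. The members were chosen by measured values: autosomal peaks of a larger list that overlapped a peak of the other larger list by at least 1 bp and overlapped no peak of either smaller list, merged where they overlapped. This gave 13231 sites of the 155777 merged autosomal sites of all lists (8.49%). They covered 2387.7 kb, with a median width of 173 bp.

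The tissue was the lung of 14-day-old male mice of B6CASTF1/J, F1 hybrids of the C57BL/6J and CAST/EiJ strains. The 2 libraries form 1 group: the label of replicate 1 names a male and no pool, and that of replicate 2 names 3 males. Both carry the same donor record, so it is not known whether they are separate animals, and the spread between them may be technical. The files hold no read counts, so depth is unknown. With 1 group no test between groups was possible, and sites are not replicates, so shares are given with exact 95% binomial intervals that cover counting only. Bulk lung mixes epithelial, vascular, stromal and blood cells, so a site open in few cells and a site slightly open in many cannot be told apart.

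Accessible sites are places where transcription factors and remodelling complexes keep nucleosomes aside. Promoters of active genes, often rich in CpG, and sites of the insulator protein CTCF are usually among the most open sites of any tissue, while enhancers vary between cell types. A footprint is a short stretch inside an open site that is cut less than its surroundings, as happens where a protein covers the DNA.

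The following sequences show members with motifs met below: CTCF and nuclear factor I (NFI) matches, which are rare in members but rarer in DNA 1000 bp away, and matches of AP-1, TEAD and ETS factors. Each runs from 75 bases before to 75 bases after the centre of a member, from the GRCm38.p6 RefSeq genome, plus strand, 5′ to 3′, with the consensus match in capitals. The genome is that of C57BL/6J, and the CAST/EiJ allele is not shown. For each motif they are the 3 members with the highest lower score percentile of both libraries among sites more than 1 kb from a gene 5′ end, leaving out untranslated regions and 1 autosome. CTCF members lay in a coding exon of Nop2 (chr6:125137123-125137273), in an intron of Prkcd (chr14:30624384-30624534) and between genes near Art4 (chr6:136861081-136861231). NFI members lay in an intron where Samd4b and Pak4 overlap (chr7:28586778-28586928), in an intron of Zyx (chr6:42354136-42354286) and between genes with Calml3 nearest (chr13:3787246-3787396). AP-1 members lay in an intron of the noncoding gene AC132455.2 (chr17:84141259-84141409), in an exon of the noncoding gene Gm31718 (chr8:126826433-126826583) and in an intron of Hdac5 (chr11:102225375-102225525). The member with overlapping TEAD and ETS matches lay in an intron of Col4a2 (chr8:11385661-11385811), and the other TEAD members in introns of B4galt1 (chr4:40850695-40850845) and of the noncoding gene Gm30382 (chr3:149347353-149347503). The other ETS members lay in introns of Fam129b (chr2:32882787-32882937) and Gnao1 (chr8:93830832-93830982).
CTCF in Nop2: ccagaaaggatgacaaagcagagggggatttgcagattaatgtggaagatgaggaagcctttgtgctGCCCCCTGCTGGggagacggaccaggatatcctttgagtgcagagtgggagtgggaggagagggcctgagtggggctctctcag
CTCF in Prkcd: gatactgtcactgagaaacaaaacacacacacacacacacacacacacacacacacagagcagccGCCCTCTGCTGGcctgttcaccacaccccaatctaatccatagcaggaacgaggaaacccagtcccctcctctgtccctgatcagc
CTCF near Art4: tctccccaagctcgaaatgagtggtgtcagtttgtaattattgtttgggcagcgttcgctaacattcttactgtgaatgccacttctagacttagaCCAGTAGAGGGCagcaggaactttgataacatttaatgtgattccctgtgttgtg
NFI in Samd4b and Pak4: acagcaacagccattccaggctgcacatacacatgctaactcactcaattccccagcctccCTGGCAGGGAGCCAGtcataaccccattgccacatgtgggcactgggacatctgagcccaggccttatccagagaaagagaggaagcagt
NFI in Zyx: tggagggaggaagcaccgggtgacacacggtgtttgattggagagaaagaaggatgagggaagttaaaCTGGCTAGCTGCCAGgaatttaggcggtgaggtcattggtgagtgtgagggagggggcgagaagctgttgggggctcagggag
NFI near Calml3: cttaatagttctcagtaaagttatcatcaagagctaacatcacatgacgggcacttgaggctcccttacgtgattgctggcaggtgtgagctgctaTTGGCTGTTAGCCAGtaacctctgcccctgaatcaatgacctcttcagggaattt
AP-1 in AC132455.2: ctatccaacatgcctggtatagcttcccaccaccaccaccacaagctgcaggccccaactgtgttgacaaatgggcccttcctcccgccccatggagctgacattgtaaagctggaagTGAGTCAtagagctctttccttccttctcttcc
AP-1 in Gm31718: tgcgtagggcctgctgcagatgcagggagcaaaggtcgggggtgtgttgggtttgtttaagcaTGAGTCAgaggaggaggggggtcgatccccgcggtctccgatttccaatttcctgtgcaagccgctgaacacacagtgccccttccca
AP-1 in Hdac5: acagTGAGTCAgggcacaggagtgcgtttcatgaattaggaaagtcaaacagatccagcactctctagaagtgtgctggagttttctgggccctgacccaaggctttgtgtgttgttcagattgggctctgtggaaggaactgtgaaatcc
TEAD in Col4a2: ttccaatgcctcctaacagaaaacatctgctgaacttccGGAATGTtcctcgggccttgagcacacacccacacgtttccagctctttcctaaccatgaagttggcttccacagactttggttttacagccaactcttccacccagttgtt
TEAD in B4galt1: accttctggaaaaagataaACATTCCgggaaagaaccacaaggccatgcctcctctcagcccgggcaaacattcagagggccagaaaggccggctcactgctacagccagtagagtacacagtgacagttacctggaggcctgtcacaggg
TEAD in Gm30382: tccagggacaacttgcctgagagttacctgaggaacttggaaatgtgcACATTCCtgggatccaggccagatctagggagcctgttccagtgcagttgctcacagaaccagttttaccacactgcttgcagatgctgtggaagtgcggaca
ETS in Col4a2: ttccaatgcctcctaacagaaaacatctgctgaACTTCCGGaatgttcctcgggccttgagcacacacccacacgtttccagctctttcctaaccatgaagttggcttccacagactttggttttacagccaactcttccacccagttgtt
ETS in Fam129b: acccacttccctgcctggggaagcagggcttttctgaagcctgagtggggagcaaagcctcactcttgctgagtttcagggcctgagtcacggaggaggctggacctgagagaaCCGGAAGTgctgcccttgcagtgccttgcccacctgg
ETS in Gnao1: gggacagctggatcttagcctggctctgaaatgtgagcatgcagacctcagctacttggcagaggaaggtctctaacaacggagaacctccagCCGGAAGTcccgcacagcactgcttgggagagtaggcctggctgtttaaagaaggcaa

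Of these, the CTCF matches in Nop2 and near Art4 touched a footprint of both libraries, while the one in Prkcd touched none. Both NFI matches in Samd4b and Zyx were footprinted in both libraries, and the one near Calml3 in replicate 1. None of the 3 AP-1 matches touched a footprint, although each of these sites held footprints of both libraries. The match in Hdac5 lay outside its site, which was 125 bp wide and narrower than the window shown. In Col4a2, which encodes a basement membrane collagen, the TEAD and ETS matches overlapped each other, and no footprint touched either. The TEAD match in Gm30382 was footprinted in both libraries and that in B4galt1, a galactosyltransferase gene, in replicate 2. The ETS match in Fam129b touched no footprint, and that in Gnao1, a G protein subunit gene, touched footprints of both libraries.

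The members were a small part of what lay below the strict lists. Replicate 1 had 50561 autosomal peaks of its larger list outside its own strict list, and replicate 2 had 39717. In replicate 1, 25.9% of these became members, 10.3% met a strict peak of the other library and 63.8% had no partner at all. In replicate 2 the shares were 33.1%, 34.8% and 32.2%. The partner lists differ in length, 141981 autosomal peaks in replicate 1 against 114442 in replicate 2. A weak peak of replicate 2 therefore had more peaks to meet, and the part of that difference in these shares was not tested.

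The share of weak peaks without a partner fell along the score in both libraries. The score is the authors' signal value per peak, on a scale the files do not state, and serves here only to rank peaks within a library. In replicate 1 it was 87.1% in the lowest decile and 40.5% in the highest, and in replicate 2 it was 64.2% and 9.87%. Members made up 10.3% of the lowest decile and 37.2% of the highest in replicate 1. In replicate 2 their share was 22.8% in the lowest decile, 37.0% in the fifth and 25.8% in the highest, where 64.3% of weak peaks met a strict peak of replicate 1.

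**Figure D1:**
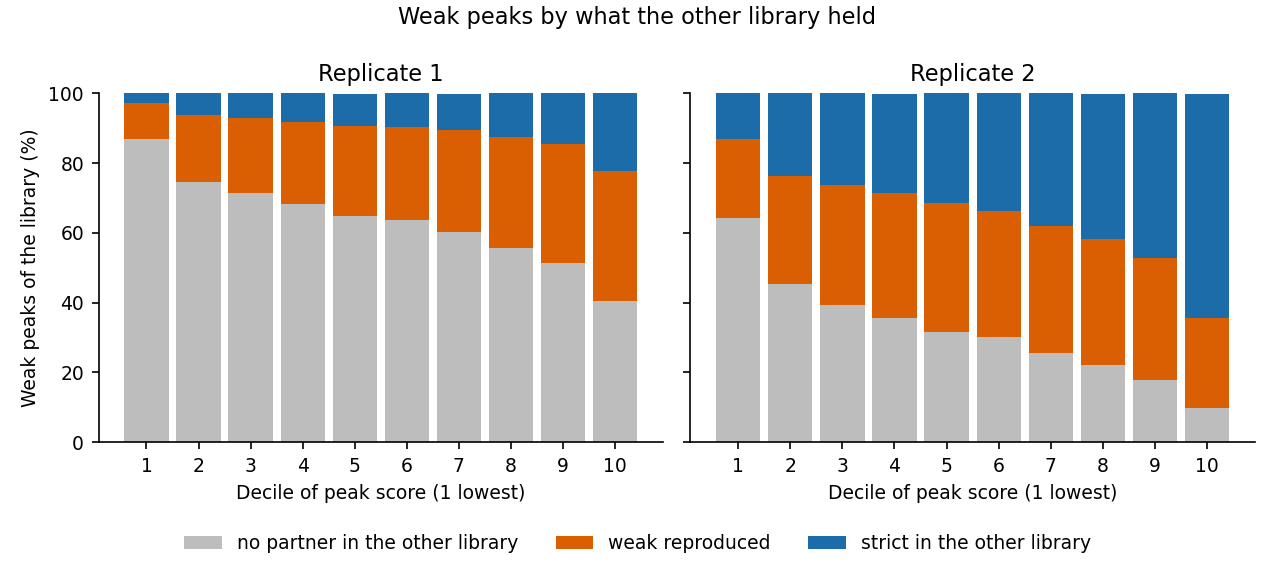
Weak peaks of each library (larger list, outside its own strict list), split by decile of peak score on the horizontal axis; the vertical axis is the percent of the peaks of that decile. Grey peaks without a partner make up 87.1% of the lowest and 40.5% of the highest decile in replicate 1, against 64.2% and 9.87% in replicate 2.

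The rule asks for an overlap of peaks of both libraries, so how closely they lie is a description of what it selected. A peak of both libraries stood behind 12827 of the 13231 sites; 188 rested on a peak of replicate 1 alone and 216 on a peak of replicate 2 alone, since the partner peak itself touched a strict peak. The centres of the paired peaks lay a median of 19 bp apart, and 60.0% were within 25 bp. Members ranged from 25 to 797 bp in width, with quartiles of 143 and 201 bp. Over the 19 autosomes their density ran from 4.38 per Mb on chromosome 3 to 7.47 per Mb on chromosome 11.

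Members stood low in each list by score, with a wide range. The rule used the lists and not the score, but both come from the same cleavage signal, so these values are a description. The median member score was 0.438 in replicate 1 and 0.473 in replicate 2, against 1.70 and 1.52 for peaks strict in both libraries. As percentiles of the own larger list, the member medians were 25.5 and 20.9, and the highest members reached 80.3 and 77.2. The percentiles of the 2 libraries went together over the 13231 members (Pearson r = 0.816, Spearman rho = 0.808), as a description of sites from the same tissue and the same rule. The lowest member scores, 0.106 and 0.121, stood beside 0.0778 and 0.143 for the lowest strict peaks, and the highest peaks without a partner scored 1.70 and 1.78. By score alone the lists overlapped.

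The authors' false discovery rate of the cleavage signal also overlapped between the lists. All strict peaks held a base at a rate of 0.001 or below. Of the members, 1614 (12.2%) did so in replicate 1 and 1277 (9.65%) in replicate 2, although no strict peak overlapped them. The 2 sets shared 219 sites (1.66%), and 2672 sites reached that rate in either library. The median of the lowest rate inside a member was 0.00509 in replicate 1 and 0.00679 in replicate 2, and the highest was 0.0497 and 0.0499, just under the limit of 0.05 of the files.

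Members lay mostly inside genes and away from promoters. Of the 13231 sites, 6362 (48.1%, 47.2 to 48.9) lay in introns and 4455 (33.7%) between genes. Coding exons held 3.81%, untranslated regions 2.21% and noncoding exons 2.43%. The gene start, within 1 kb of the outermost 5′ end of a protein-coding or long noncoding gene, held 1296 sites (9.80%, 9.29 to 10.3), against 19.6% over all sites. By library the share was 9.34% and 9.54% (mean 9.44% ± 0.14, SD, n = 2), and among peaks strict in both libraries 28.1% and 28.0% (28.0% ± 0.035). The members' share also lay below that of weak peaks found in 1 library only, 11.5% in each library, with intervals that did not overlap. Intron shares ran the other way: 33.9% among sites strict in both and 45.2% and 44.6% among weak peaks of 1 library. These differences were larger than the spread between the libraries. For members and for strict peaks that spread is small by design, since the peaks of both libraries mark nearly the same sites.

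**Figure D2:**
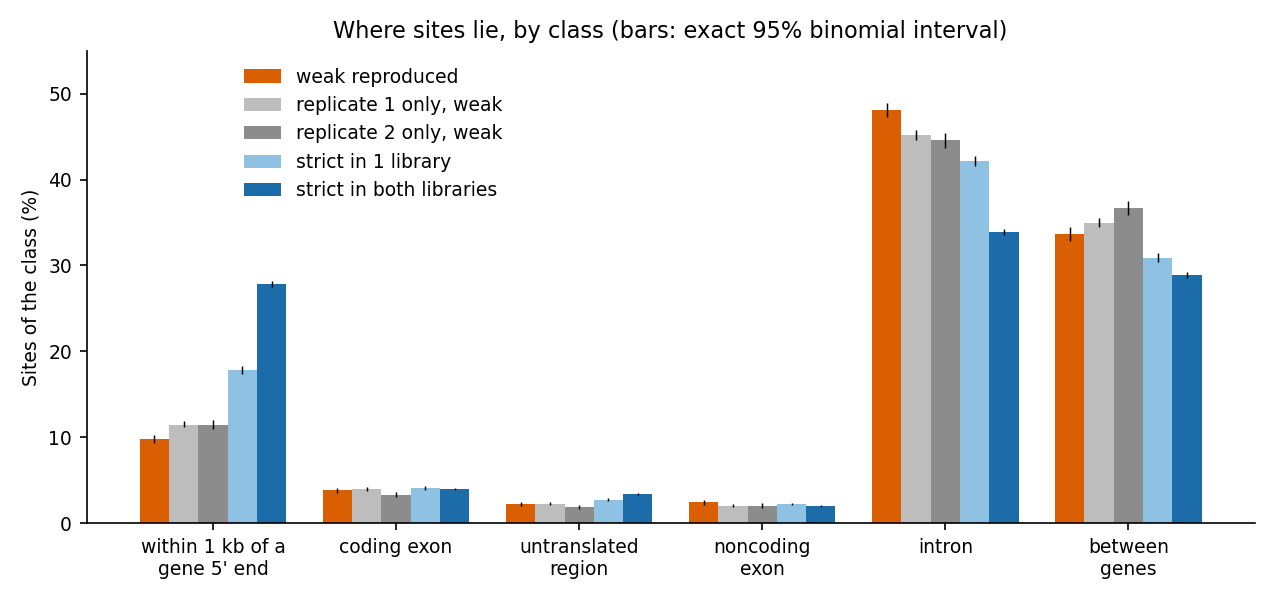
Percent of the sites of each class (vertical axis) in 6 kinds of place (horizontal axis), with exact 95% binomial intervals as black lines. Weak reproduced sites are lowest of the 5 classes at gene 5′ ends (9.80%, against 27.9% for sites strict in both libraries) and highest in introns (48.1%).

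Of the 1296 members at gene starts, 876 (67.6%) lay in the start window of a gene that also held a strict site, and 420 in windows without one. Strict sites are common there: 63.8% of all protein-coding gene starts held one. Their centres lay a median of 507 bp from the nearest gene 5′ end, 722 downstream and 574 upstream of it, and only 255 were within 100 bp. The median observed-to-expected CpG ratio, low where methylation has worn CpG away, was 0.412 in all 1296, 0.313 in the 420 without a strict site and 0.771 in strict sites of both libraries at gene starts. The 420 also had a lower GC content, 54.2% against 64.2%. Over all places the member median of the CpG ratio was 0.240, against 0.335 for sites strict in both libraries.

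Only 257 of the 20807 autosomal protein-coding genes (1.24%) had a weak reproduced site and no strict site at their start, while 13274 (63.8%) had a strict one. Among long noncoding genes it was 173 of 9426 (1.84%). Of the 257, 67 (26.1%) had a strict site at another annotated transcript start inside the gene, so their outermost start need not be the one in use. The window held the site anywhere within 1 kb, and the site of highest lower percentile is described for each gene named.

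The 22 gene lists of lung cell types, other tissues and housekeeping genes placed few of their members in this state. Of 285 autosomal genes listed, 7 were held by a weak reproduced site only (2.46%, 0.993 to 5.00), an interval that includes the 1.24% of all genes; 144 had a strict site and 134 neither. Strict sites at starts differed between the lists, beside 63.8% of all genes. They lay at 14 of 15 genes of alveolar type 1 (AT1) cells, 11 of 14 of alveolar type 2 (AT2) cells and 17 of 21 endothelial genes. Housekeeping genes had 13 of 14, skeletal muscle genes 6 of 13 and hepatocyte genes 1 of 14, so high shares were not confined to lung lists. Some other lung lists lay lower than all genes, with 5 of 12 secretory, 3 of 6 lymphatic, 2 of 6 basal and 1 of 7 mesothelial genes. The 7 genes came from 7 lists, 1 in each.

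Among the airway and alveolar lists, the gene was Lamp3 for AT2 cells, a protein of lamellar bodies, the surfactant stores. Its site, centred 22 bp downstream of the start, scored 0.453 in replicate 1 (percentile 27.0) and 0.341 in replicate 2 (percentile 8.34), and only replicate 1 had footprints in it. Rsph4a, a radial spoke protein of motile cilia, had a site centred 90 bp upstream, with scores of 0.403 and 0.330. Footprints lay in it in both libraries, 2 and 1. Neither gene had a strict site nearby: the nearest lay 53640 and 46040 bp away.

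Emcn, the endothelial surface protein endomucin, had a site centred 159 bp inside the gene, with scores of 0.445 and 0.462 and a false discovery rate under 0.001 in both libraries (0.00078 and 0.00067). Upk1b, a uroplakin of the mesothelial list, had the highest scores of the 7, 0.523 and 0.572 (percentiles 34.1 and 30.0). It also was the only one with a shared footprint, of 7 bases. The Emcn site stood at percentiles 26.3 and 19.8.

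The blood cell lists gave Itgax, the integrin alpha subunit CD11c, and Il7r, the interleukin 7 receptor. The Itgax site scored 0.361 and 0.473 and held no footprint in either library, and the Il7r site scored 0.332 and 0.462. Tbx20, a heart transcription factor, was the gene of the cardiac list, with scores of 0.318 and 0.363, no footprint, and a CpG ratio of 0.74, the highest of the 7. In the myeloid and lymphoid lists most starts held no site of either kind, 12 of 17 and 12 of 15.

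**Figure D3:**
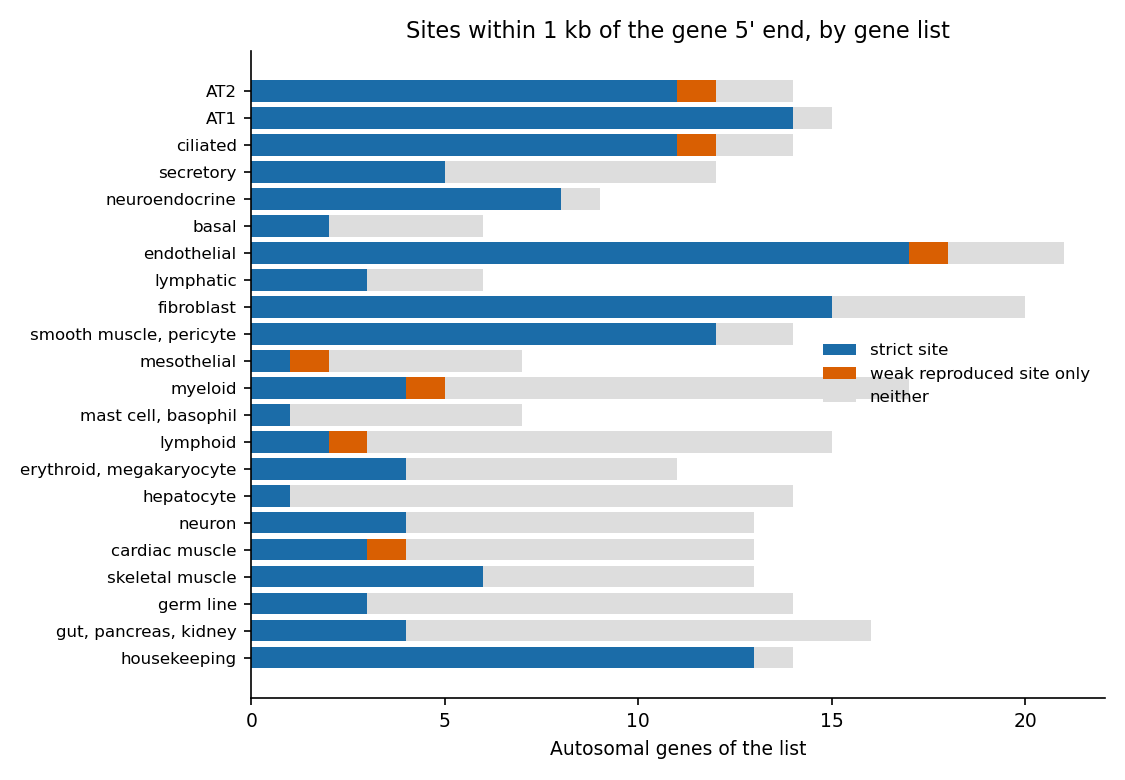
Autosomal genes of each of 22 lists (horizontal axis, count) by what lay within 1 kb of their 5′ end: a strict site, a weak reproduced site only, or neither. The orange part is 1 gene in each of 7 lists and 0 in the other lists.

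Over the whole set of 257, the genes with the highest lower percentile, named after their values were seen, were led by Rin1, a Ras effector, with scores of 1.22 and 1.20 at a site 294 bp downstream of its start. Next was Ltbp4, which binds latent transforming growth factor beta and takes part in elastic fibre assembly in the lung, with 0.955 and 1.11 at a site 63 bp upstream. Notch1, the receptor, had scores of 1.28 and 1.09 at a site 220 bp downstream, with footprints in both libraries, 4 and 1. Atp6v0a4, a proton pump subunit, had scores of 1.08 and 1.05 at 159 bp upstream, and the gene model B230217C12Rik had 0.834 and 1.09 at 419 bp downstream. The cytokine gene Ltb scored 1.11 and 0.968 at 55 bp upstream.

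The next 4 genes of the 257 were picked for their known functions, by no rule, after their values were seen, and other genes of the 257 ranked above them. Fcer1g, the signalling chain of Fc receptors, had its site centred 1 bp upstream of the start, with scores of 0.785 and 0.880. Coro1a, an actin regulator of blood cells, had a site 13 bp upstream with scores of 0.559 and 1.00, with 2 and 3 footprints. Wnt5a, a ligand of lung mesenchyme, had a site 72 bp downstream with scores of 0.99 and 0.770 and the high CpG ratio of 0.92, but no footprint. Icam2, an endothelial adhesion protein, had scores of 0.643 and 1.01 at 132 bp downstream, with 7 shared footprint bases. Scores above 0.5 in both libraries put these 4 sites above the member medians.

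Over gene bodies, members were spread over many genes, and a few gene models held many. These counts were not scaled to gene length. Of the 20807 protein-coding genes, 4525 (21.7%) had a member in the gene body, 2880 of them exactly 1 and 236 at least 5. The gene models with most members were Gm20388 (49), Fgfr2 (24), Rbms3 (19), Zfhx3 (15) and Rad51b (14). Gm20388 and Fgfr2 are the longest of the 5 as annotated, at 4435 and 2961 kb, and only 8.07% and 9.56% of their sites were members, strict sites counted with them. Models of this length can span other genes, as Gm20388 spans Tubb3. Their sites, among them the 24 of the Fgfr2 model, need not belong to the gene named. In Rbms3, an RNA-binding protein gene of 1057 kb, 19 members lay beside 40 strict sites (32.2%). In Zfhx3, a homeobox transcription factor gene, members were 25% of the sites, and in Rad51b, a DNA repair gene, 29.2%. The 5 gene models were picked for holding the most members, which can raise these shares. The shares that follow are measured otherwise, over gene bodies with 20 kb on each side and away from gene starts. Over all protein-coding genes, members were 13.4% of such sites. Over the 22 lists this share ran from 4.35%, for mesothelial genes and for erythroid and megakaryocyte genes, to 21% for AT1 genes (21 members beside 79 strict sites). Lung lists and others lay in between without order: hepatocyte genes had 19.4%, cardiac genes 18.4%, basal genes 17.9%, endothelial genes 15.6%, housekeeping genes 9.59%, AT2 genes 8.82% and ciliated genes 8.45%.

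Members lay near strict sites less often than strict sites lay near each other. Within 1 kb of a strict site were 3833 members (29.0%, 28.2 to 29.8), against 40.4% of the sites strict in both libraries, each measured to the nearest other strict site. Beyond 10 kb lay 27.3%, against 20.7%. Weak peaks of 1 library had similar shares within 1 kb, 31.1% and 28.5%, and larger ones beyond 10 kb, 30.8% and 33.9%. The median distance was 3540 bp for members and 2060 bp for strict sites. The rule itself sets a lower bound here, since a member cannot touch a strict site. Members far from strict sites ranked lower: beyond 10 kb the median percentiles were 15.1 and 12.3, against 30.7 and 25.1 within 1 kb.

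Sites made mostly of repeats were few but more frequent than among sites strict in both libraries. Over 50% of the bases were masked as repeats in 4.47% of members (4.12 to 4.83), in 2.13% of sites strict in both libraries and in 7.90% and 7.07% of the weak peaks of 1 library. Sites strict in 1 library only were near the members, at 4.73% (4.50 to 4.97). Sites without any masked base were also slightly more frequent, 53.5% (52.6 to 54.3) of members against 51.8% of sites strict in both libraries. The share was higher still among weak peaks of 1 library, 58.8% and 62.1%, and among sites strict in 1 library only, 59.4%. It can depend on width, with medians of 173 bp in members and 200 bp in sites strict in both, and that part was not tested. Within the members the share over 50% masked was 6.03% in the lowest tertile by mean percentile and 3.06% in the highest.

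Footprints gave a readout that the rule did not use, though they come from the same cleavage data. A footprint of replicate 1 overlapped 65.8% of the members and one of replicate 2 overlapped 48.1%. Footprints of both libraries lay in 4699 members (35.5%, 34.7 to 36.3), against 48.7% of all sites, and 2854 (21.6%) had none. Of sites strict in 1 library only, 31.2% (30.7 to 31.7) had footprints of both, below the members. A footprint of replicate 1 overlapped 69.7% of those sites and one of replicate 2 overlapped 40.2%. Measured on each library's own peaks, 65.2% and 47.1% of the members had a footprint, against 92.9% and 90.3% of the peaks strict in both libraries and 52.7% and 33.9% of the weak peaks of that library alone. The order of the 3 classes was the same in both libraries. Members held 1.01 and 0.649 footprints per peak, and 6.80 and 4.73 per kb, against 14.9 and 13.8 per kb in strict peaks.

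A footprint in both libraries did not always mean the same bases. Of the 4699 members with footprints of both, 2439 (51.9%) shared at least 1 footprint base, with a median of 7 shared bases. The share of members with footprints in both rose with the score, from 15.2% in the lowest tertile to 34.4% and 57.0%. Score and footprints come from the same cuts. Their parts in the lower footprint share of members, against sites strict in both libraries, were not tested. The sites with most shared bases, 40 each, lay in an intron of Egfl7, an endothelial secreted protein, and 835 bp from the 5′ end of Tacc1. The Egfl7 site had 3 footprints in each library and scores of 1.27 and 1.39. An intron site of Vgll4, a TEAD cofactor, shared 36 bases and held the lowest false discovery rate of any member, 5.4e-09 in replicate 1. The Tacc1 and Vgll4 sites consisted wholly of bases masked as repeats.

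**Figure D4:**
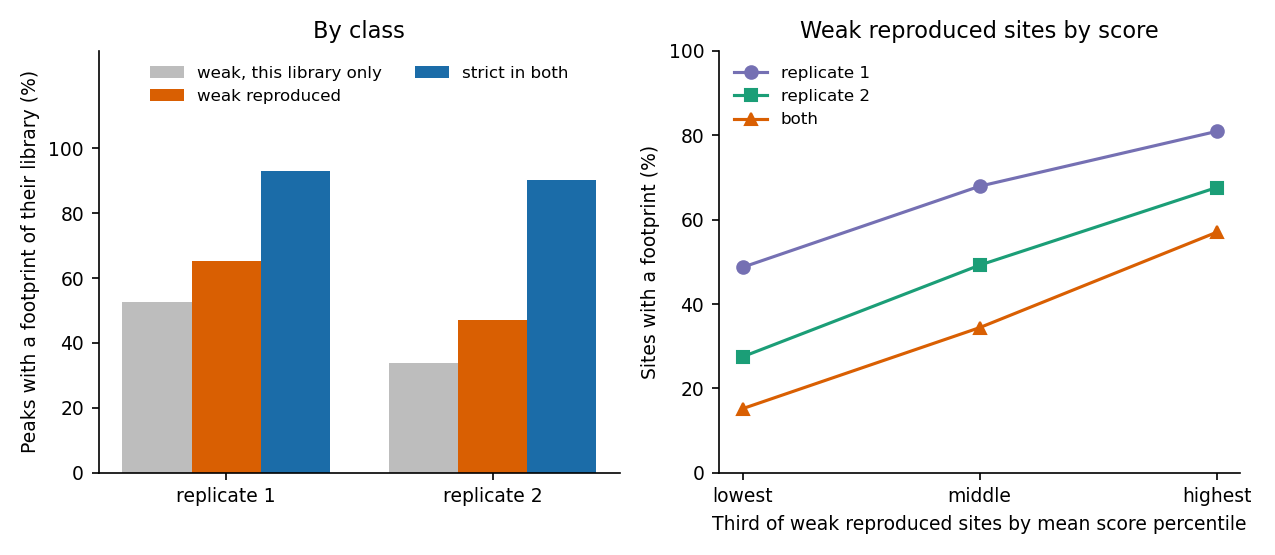
Left, percent of peaks with a footprint of their own library (vertical axis) for weak peaks of 1 library, weak reproduced peaks and peaks strict in both; right, percent of weak reproduced sites with a footprint by tertile of mean score percentile. Weak reproduced peaks (65.2% and 47.1%) lie between the other classes drawn in both libraries, and the share with footprints in both libraries goes from 15.2% to 57.0% across the tertiles.

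The members that ranked highest lay in genes. The site of highest lower percentile was in an intron of Rara, a retinoic acid receptor, with scores of 1.79 and 1.99 (percentiles 76.5 and 77.2). It lay 227 bp from a strict site. The next lay in an intron of Nfix, itself an NFI family gene, with scores of 1.63 and 1.74 and 27 shared footprint bases. Intron sites of Ablim1 (1.58 and 1.72) and Coro1c (1.49 and 1.68), which both encode actin-binding proteins, and an exon site of the long noncoding RNA Neat1 (1.51 and 1.65) followed. Of these 5, the Ablim1 site alone had a false discovery rate under 0.001 in both libraries, 0.00073 and 0.00063.

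Sequence was also outside the rule. Consensus matches of 31 factors were searched on both strands from 75 bases before to 75 after each centre and in windows of the same length 1000 bp away on both sides. A match is a description of letters, not a bound site. The lower quartile of member width was 143 bp, so a window can reach past the site and a match can lie outside it. The values below are for the 11935 members and 48487 sites strict in both libraries that lay more than 1 kb from a gene 5′ end, a restriction chosen after the values were seen. Strict sites below are those strict in both libraries, unless 1 library is named. Against the members' own flanks, the ratio of centre to flank had an interval above 1 for 19 motifs, below 1 for SRF and OCT (ATGCAAAT), and including 1 for 10, among them GATA and RUNX.

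CTCF showed the widest gap between members and strict sites in percentage points. Its match lay in 126 members (1.06%, 0.880 to 1.26) and in 4742 strict sites (9.78%, 9.52 to 10.1). Flank windows held it in 0.121% and 0.16%, which gives ratios of 8.69 (5.77 to 13.5) for members and 61.2 (52.1 to 72.3) for strict sites. Each library alone gave 1.04% and 1.06% of its members. Over all members, gene starts included, the CTCF ratio was 7.82 (129 centre windows against 33 of 26462 flank windows). Within all members, gene starts included, the CTCF share was 1.32% in the lowest tertile by score and 0.725% in the highest, and 1.47% beyond 10 kb from a strict site against 0.600% within 1 kb.

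Other matches lower in members than in sites strict in both libraries, with intervals apart, were those of NFI, KLF/SP, ETS, NRF1, YY1 and REST. NFI, a family active in lung maturation, matched 1.06% of members and 1.58% of strict sites. Its ratio in members, 14.8 (8.90 to 26.2), was the highest ratio of the motifs matched in any flank of members. The NFI ratio was no lower in strict sites, 19.3 (15.3 to 24.7), or in sites strict in 1 library only, 18.6 (13.9 to 25.4). It was 23.1 and 10.0 in weak peaks of replicate 1 and replicate 2 only. KLF/SP (GGGGCGGGG) matched 1.09% against 2.23% and ETS (CCGGAAGT) 0.402% against 0.606%. NRF1 (GCGCATGCG) and YY1 (AAGATGGCG) matched 0.0922% against 0.309% and 0.117% against 0.291%. REST, a repressor of neuronal genes, matched 2 members (0.0168%, 0.00203 to 0.0605) against 0.309%. With 2 matches, how its gap as a ratio ranks beside that of CTCF cannot be told. In sites strict in 1 library only, CTCF (3.33%), NFI (1.78%), KLF/SP (1.48%) and REST (0.348%) also lay above the members, with intervals apart. For ETS (0.409%), NRF1 (0.161%) and YY1 (0.145%) the intervals of these sites overlapped those of the members.

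Matches of 7 motifs were more frequent in members than in sites strict in both libraries, with intervals apart. AP-1 (TGAGTCA), the FOS and JUN site of many enhancers, lay in 735 members (6.16%, 5.73 to 6.61) and in 4.99% (4.80 to 5.19) of strict sites, against 2.68% and 2.62% of flank windows. By library the members' share was 6.05% and 6.16%, against 4.91% and 5.00%. The AP-1 ratio was 2.30 (2.07 to 2.56) in these members and 2.27 over all members (780 centre windows against 687 flank windows), against 1.91 (1.80 to 2.02) in strict sites. ACAGGAAG, the site of ERG-type ETS factors that endothelial cells use, lay in 4.69% against 3.67%. GAGGAAGT, the site of PU.1 of myeloid and B cells, lay in 3.10% against 2.15%, with ratios of 3.52 (2.97 to 4.19) and 2.19 (2.01 to 2.40). NKX2-1 (CACTTGA), the lung epithelial regulator, matched 3.41% against 2.77%, and the E-box CAGCTG 20.2% against 18.5%. RUNX (TGTGGTT), a family of blood cell regulators, matched 4.11% against 3.41%. The letters AGATAAG, which GATA factors of airway and blood recognise, matched 2.07% against 1.68%. In both the interval of the members' centre-to-flank ratio included 1. In sites strict in 1 library only, AP-1 (5.09%), the ERG-type site (3.59%), PU.1 (2.33%) and CAGCTG (17.7%) lay below the members. Their intervals were apart from those of the members. The intervals of NKX2-1 (2.92%), GATA (1.94%) and RUNX (4.22%) in these sites overlapped those of the members.

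For 17 motifs the intervals of members and of sites strict in both libraries overlapped. TEAD (ACATTCC), a site of contact-dependent growth control, matched 4.11% (3.77 to 4.49) of members and 3.62% (3.46 to 3.79) of strict sites, with ratios of 1.95 and 1.77. FOXA (TGTTTAC), a factor of lung epithelium, matched 3.31% and 3.15%. Weak peaks of 1 library did not stand together: CTCF matched 1.52% of those of replicate 1 and 0.460% of those of replicate 2, on either side of the members. AP-1 matched 5.16% and 4.67%, both below the members. NKX2-1 (2.75% and 3.09%) and the E-box CAGCTG (15.8% and 19.2%) also lay below them in both. For these 2 motifs, however, the intervals of replicate 2 overlapped those of the members. They were 2.77 to 3.42 against 3.09 to 3.75 for NKX2-1, and 18.4 to 19.9 against 19.5 to 21 for CAGCTG. For the other 4 motifs more frequent in members than in strict sites, weak peaks of replicate 2 were near or above the members: the ERG-type site matched 3.34% and 4.88%, PU.1 2.31% and 3.09%, RUNX 3.93% and 5.46% and GATA 1.86% and 2.15%.

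**Figure D5:**
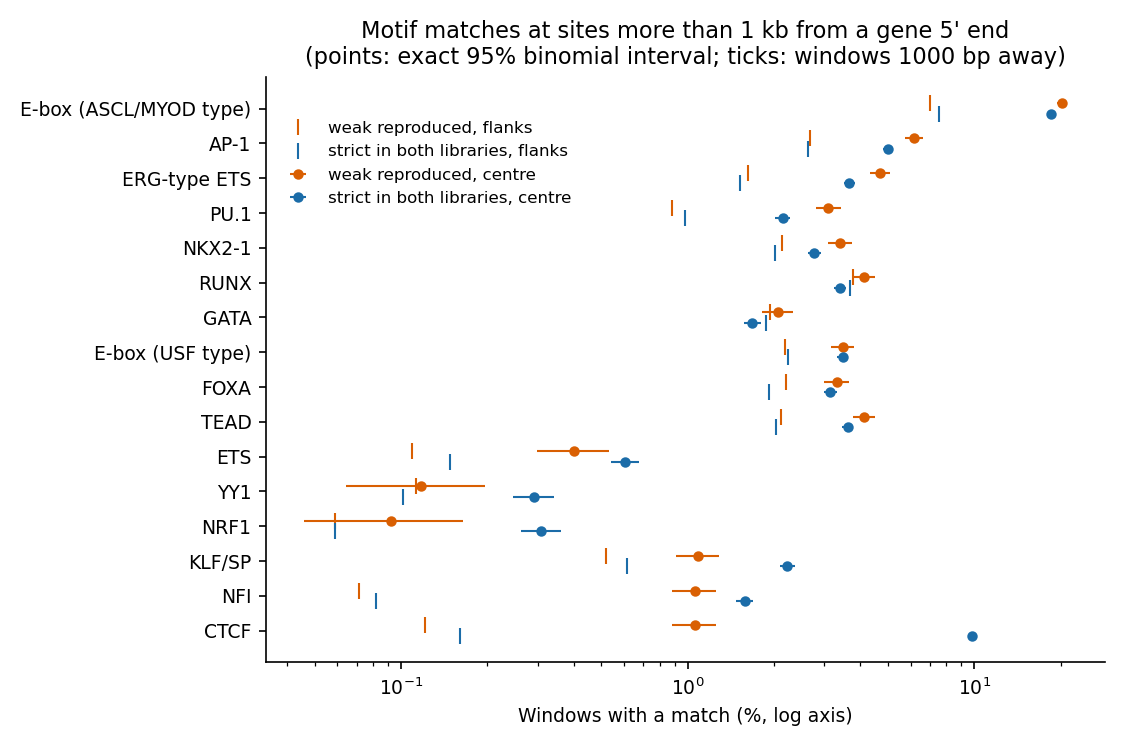
Percent of windows with a consensus match (horizontal axis, log scale) for 16 motifs at sites more than 1 kb from a gene 5′ end; points are windows at the site centre with exact 95% binomial intervals, ticks are windows 1000 bp away. Of the 16 motifs drawn, the CTCF points lie furthest apart (1.06% for weak reproduced sites, 9.78% for strict sites), while AP-1, ERG-type ETS and PU.1 lie higher in weak reproduced sites.

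Matches in the windows around member centres were footprinted less often than the same matches around strict sites, here over all sites, gene starts included. A footprint of replicate 1 touched 65 of 130 CTCF matches in members (50%, 41.1 to 58.9), and one of replicate 2 touched 32 (24.6%, 17.5 to 32.9). In sites strict in both libraries it was 98.8% and 93.6%. For NFI the shares were 66.2% and 32.3% in members, against 98.3% and 88.9%. AP-1 matches were touched far less in either class, 14.2% and 10.0% in members against 28.2% and 27.0%. PU.1 matches followed the same order, with 11.8% and 8.67% against 22.7% and 22.6%. CTCF and NFI sequences are known to leave deep footprints, whereas those of many short-lived binders are shallow. The CTCF and NFI consensus sequences are also longer than those of AP-1 and PU.1, which gives a footprint more bases to touch. The part of either in these shares was not tested.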

How the data were processed

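DNase-seq was made on lung of 14-day-old male mice in 2 libraries of 1 group. Each library's own peaks, footprints and cut-rate runs were deposited on mm10, per the labels. For the aligner, the callers of peaks and footprints and all settings, no name or version is stated: not given in the sources used here. Each deposited peak has a signal value, the authors' score, on an unstated scale, which was used only to rank peaks within a library. The p-value and FDR columns are the authors': the cut-rate files as deposited list bases at an FDR of 0.05 or below, and the footprint files carry 0.01 for every footprint.

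Members and gene lists were chosen with earlier results of these data known. Peaks were ranked within the whole larger list, restricted to the autosomes, overlapped (1 bp) and merged. Strict peaks and members were merged separately for comparison, while weak peaks of 1 library were taken as listed, without merging. Median widths were 173 bp for members and 123 and 111 bp for weak peaks of replicate 1 and replicate 2 only. A gene start was the outermost GENCODE M21 5′ end ± 1 kb (20807 protein-coding, 9426 noncoding genes). Places were assigned in the order gene start, coding exon, untranslated region, noncoding exon, intron, between genes. Sequence came from the GRCm38.p6 RefSeq genome, whose chromosome ends contained all peaks. Motif ratios are 2 times the centre count over both flank counts, with exact (Clopper-Pearson) intervals. Python 3.11.15, numpy 2.4.6, pandas 2.3.3, scipy 1.17.1 and matplotlib 3.10.9 were used, and the interval and motif code was tested on simulated data.

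Named by rule were, for each gene list, up to 3 genes held by a weak reproduced site only, by mean percentile. The 5 sites of highest lower percentile, the 5 with most shared footprint bases, 3 sites for each of 5 motifs and the 5 genes with most members were also taken. Splits by tertile, distance, repeats and CpG, the restriction of motifs to distal sites, the counts of motifs with intervals apart, shares near listed genes and the overlap of motifs with footprints were chosen after values were seen. Other overlaps, windows, margins and FDR levels and each library alone were tried. Sex chromosomes were left out.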

Additional observations from a re-analysis of the deposited data

How the results depend on the processing

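Of 45 values under other settings, 6 stayed within the spread between libraries or, for counts, within 1.5 times, and 39 moved. A reversal was not among the labels assigned. The spread is narrow by design, since the member peaks of both libraries mark nearly the same sites. The causes were not tested. Asking for an overlap of 50% of both peaks gave a gene start share of 8.11%, footprints in both of 39.6%, 25% within 1 kb of a strict site, CTCF and AP-1 ratios of 10.4 and 2.38, and 165 genes held by weak sites only. Asking for a base at an FDR of 0.01 or below in both libraries left 5691 sites, with 11%, 45%, 29.7%, ratios of 10 and 2.31, and 128 genes. Without strict peaks within 500 bp, the gene start share was 6.13%, footprints 36.4% and the AP-1 ratio 2.43; without them within 100 bp, 26.8% lay within 1 kb of one. Gene windows of 500 and 2500 bp gave 5.8% and 16.2%, and every transcript start 15.9%. Whole footprints gave 35.2%. Whole sites gave ratios of 6.55 and 2.18, and distal sites 8.69 and 2.3, the latter pair added after seeing the data.

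With 1 library alone and no partner asked, sites numbered 39717 to 50561, the gene start share was 10.6 to 11.8%, the footprint share 47 to 57.8% (its own footprints only), the share within 1 kb 24.3 to 28.1%, the CTCF ratio 9.36 to 12.8, the AP-1 ratio 1.84 to 2.01 and the genes held 884 to 885. No paired analysis was possible because there was only 1 group. In every setting run the CTCF and AP-1 ratios stayed above 1, and the gene start share stayed below the 27.9% of sites strict in both libraries. That share was measured with windows of 1 kb and not under the other settings. Unknown read depth limits all values, since a deeper library would list more weak peaks.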
